A study of Thermothelomyces thermophilus with 14 samples.

Results

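The genes clr-1 (MYCTH_2298863) and clr-2 (MYCTH_38704) encode 2 transcription factors of the cellulase pathway. They were picked by locus identifier from a count table of 9110 genes of the thermophilic filamentous fungus Myceliophthora thermophila, also named Thermothelomyces thermophilus, and were followed over its 14 libraries. The gene names come from published locus assignments as remembered, and the files give identifiers without names. All libraries came from mycelium of the wild-type strain ATCC 42464, which was grown beforehand, moved to a defined medium in Vogel's salts and collected 4 h later. In 250-mL flasks with 100 mL of medium, the group XA (called AX in the count table) received 1% Avicel, a microcrystalline cellulose, with 1% xylan, and the group Xylan received 2% xylan. In 24-well plates with 5 mL of medium, G2 received 2% cellobiose, X2 2% xylobiose, G2X2 both disaccharides at 2% each, GX 1% glucose with 1% xylose, and NoCarbon2 no carbon source. Each of the 7 groups had 2 libraries.

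CLR-1 and CLR-2 are zinc binuclear cluster proteins, a family of fungal DNA-binding regulators. In Neurospora crassa, a relative, both are needed for growth on cellulose. There, CLR-1 acts upstream in the presence of cellobiose and is needed for expression of clr-2, and CLR-2 is needed for most cellulase genes. Cellobiose, made of glucose units, is released from cellulose, and xylobiose, made of xylose units, is released from xylan. The design asks how each regulator's messenger RNA stood with each sugar, alone and combined.

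Depth was similar throughout, from 17992946 to 25254924 gene counts a library. Across genes, log2 levels of replicates had a Pearson r of 0.965 to 0.992, and those of libraries from different groups 0.860 to 0.961. Both members passed the filter on low counts, with 83 to 4722 reads for clr-2 and 703 to 4009 reads for clr-1 per library. Levels below are CPM, counts relative to the library's total after TMM scaling, which corrects for library composition, and changes are log2 fold changes ± SE from edgeR's quasi-likelihood test over 8567 genes. Changes with a Benjamini-Hochberg adjusted p under 0.05 are termed called. Whether replicates were separate cultures is not said in the labels, so the p-values measure only how these samples vary, and that variation may be technical. Flask and plate groups differ in vessel and volume, and these cannot be told apart from the carbon source in any comparison of levels across vessels.

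The regulators followed different patterns. The messenger RNA of clr-2 was high in each group that held cellulose or cellobiose and low in the others. Its highest and lowest group means, XA in flasks and NoCarbon2 on plates, spanned 16.4-fold. On plates alone its means ran from 90.3 CPM in G2 to 9.93 CPM in NoCarbon2. In order over both vessels, its means ran from XA through G2, G2X2, GX, Xylan and X2 to NoCarbon2. The 3 highest groups did not overlap with each other or with the rest, while each of the 4 lowest groups overlapped with its neighbour in that order. The span of clr-1, from NoCarbon2 on plates to Xylan in flasks, was 3.11-fold. Its order over both vessels was NoCarbon2, XA, G2, X2, G2X2, GX and Xylan. On plates alone its means ran from 127 CPM in NoCarbon2 to 41.9 CPM in GX. NoCarbon2 and XA stood apart from their lower neighbours, whereas neighbours from G2 down to Xylan overlapped.

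**Figure D1:**
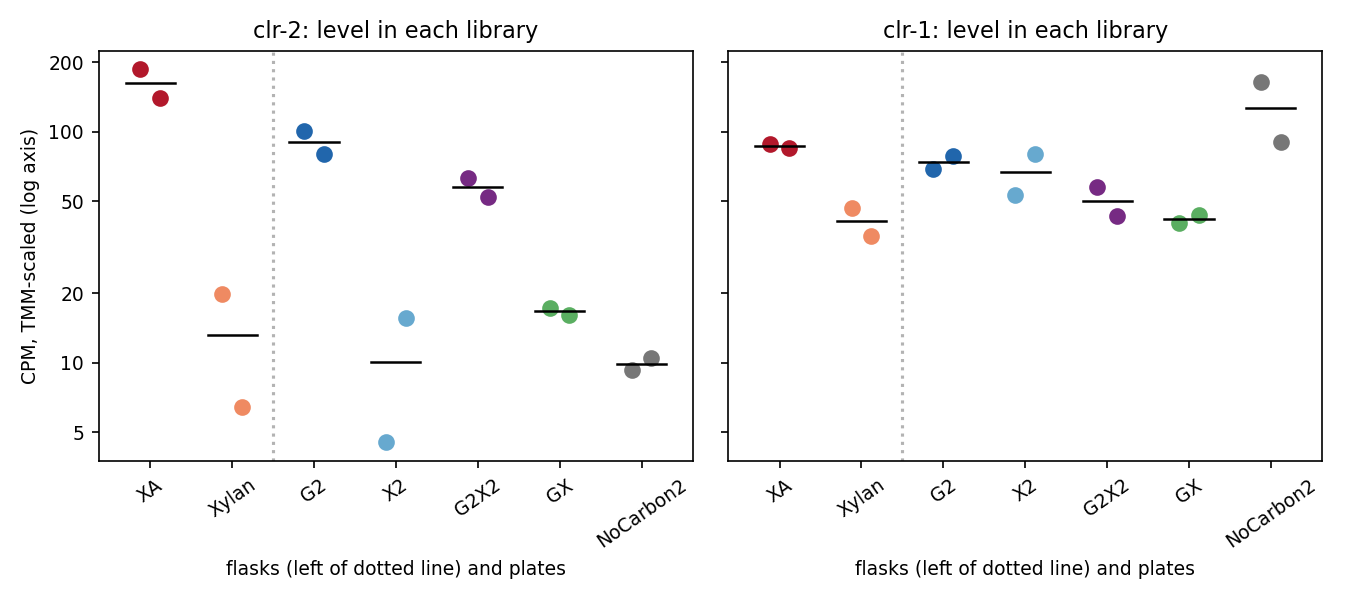
CPM of clr-2 (left) and clr-1 (right) in each of 14 libraries, on a log axis, with points for libraries and bars for the mean of 2. For clr-2 the XA, G2 and G2X2 libraries lie between 52.0 and 186 CPM and all others at 19.9 CPM or below, and for clr-1 the NoCarbon2 libraries are highest, at 164 and 90.3 CPM.

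In flasks, clr-2 was much higher when Avicel replaced part of the xylan. Its XA levels were 186 and 140.0 CPM, and its Xylan levels were 19.9 and 6.45 CPM. The groups did not overlap, and the Xylan libraries differed 3.09-fold from each other. The log2 fold change was 3.63 ± 0.54 (edgeR adjusted p = 0.000575), the 25th highest of 8567 genes, in a comparison where 14.8% of genes were called higher and 17.1% lower. It was 4.68 without Xylan replicate 1 and 3.02 without Xylan replicate 2, and was called each time.

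In the same flasks clr-1 had 88.8 and 85.1 CPM in XA, against 46.7 and 35.2 CPM in Xylan. All XA values lay above all Xylan values, by a smaller factor than for clr-2. The log2 fold change was 1.09 ± 0.28 (adjusted p = 0.0123), which ranked 741st among the 8567 genes. This call was lost without Xylan replicate 2 (0.88, adjusted p = 0.112), XA replicate 1 (1.06, adjusted p = 0.0644) or XA replicate 2 (1.12, adjusted p = 0.0549).

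On plates, clr-2 was higher with cellobiose than without carbon, and with xylobiose no difference was called. With cellobiose clr-2 had 100.2 and 80.4 CPM, against 9.34 and 10.5 CPM without carbon. The groups lay far apart, and the log2 fold change was 3.18 ± 0.53 (edgeR adjusted p = 0.000998), the 90th highest, with 12.3% of genes called higher and 14.2% lower. With xylobiose it had 4.52 and 15.7 CPM, 1 library below and 1 above both NoCarbon2 libraries. The log2 difference from NoCarbon2 was 0.011 (edgeR adjusted p = 0.989), and its 95% interval, -1.11 to 1.13, includes changes of that size in both directions. It was -1.15 without X2 replicate 2, -0.073 without NoCarbon2 replicate 1 and 0.59 without X2 replicate 1, so that its sign rests on single libraries. With xylobiose 19.1% of all genes were called higher and 19.5% lower.

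In the mixture of both disaccharides clr-2 was also high. The G2X2 libraries had 63.0 and 52.0 CPM, all above the NoCarbon2 libraries, and the log2 fold change against NoCarbon2 was 2.53 ± 0.52 (edgeR adjusted p = 0.00263; 19.4% of genes were called higher and 18.8% lower). Glucose with xylose gave 17.3 and 16.1 CPM, also above both NoCarbon2 libraries, but the difference of 0.75 ± 0.50 was not called (adjusted p = 0.307; 10.9% of genes were called higher and 13.1% lower). These comparisons share the NoCarbon2 libraries, so their values are not independent of each other.

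For the direct test of the 2 sugars at equal dose and time, clr-2 was lower with xylobiose than with cellobiose. The log2 difference of X2 against G2 was -3.17 ± 0.54 (edgeR adjusted p = 0.00106), the 62nd lowest of 8567 genes, where 19.2% were called higher and 18.3% lower. Without X2 replicate 2 it was -4.34, and without X2 replicate 1 it was -2.57. Among 3 pairs of disaccharide groups, G2X2 against X2 was also called (2.52 ± 0.53, adjusted p = 0.00476; 14.6% of genes were called higher and 15.4% lower), with 3.68 without X2 replicate 2 and 1.89 without X2 replicate 1. The third pair, G2X2 against G2, was not called for clr-2. Both G2X2 libraries (63.0 and 52.0 CPM) lay below both G2 libraries (100.2 and 80.4 CPM). The log2 difference was -0.65 with a 95% interval from -1.71 to 0.41 (adjusted p = 0.403), and 8.23% of genes were called higher and 7.04% lower. Of all called genes in that pair, 53.9% were higher with TMM and 42.2% with upper-quartile scaling.

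Set against the monosaccharides, clr-2 was higher with cellobiose (2.43 ± 0.51, edgeR adjusted p = 0.0107; 4.62% of genes were called higher and 5.87% lower) and with the mixture (1.78 ± 0.51, adjusted p = 0.0220; 14.3% of genes were called higher and 12.2% lower). Of the genes called between G2X2 and GX, 54.0% were higher with TMM and 39.7% with upper-quartile scaling. The groups did not overlap in either case, but these are the less firm of the clr-2 calls. The G2 call was lost without G2 replicate 1 (2.27, adjusted p = 0.0506), GX replicate 1 (2.49, adjusted p = 0.0801) or GX replicate 2 (2.38, adjusted p = 0.0988). The G2X2 call was lost without G2X2 replicate 1 (1.64, adjusted p = 0.0874), GX replicate 1 (1.83, adjusted p = 0.103) or GX replicate 2 (1.73, adjusted p = 0.121). Xylobiose against the monosaccharides was not called for clr-2 (-0.74 ± 0.51, adjusted p = 0.272; 20.1% of genes were called higher and 18.2% lower), although it was -1.91 and called without X2 replicate 2 (adjusted p = 0.0253).

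On plates, every sugar group had a lower clr-1 mean than no carbon. Against no carbon, clr-2 was called higher in G2 and G2X2 and was not called in X2 or GX. With glucose and xylose clr-1 had 40.3 and 43.5 CPM, against 164 and 90.3 CPM in NoCarbon2, a log2 fold change of -1.60 ± 0.29 (edgeR adjusted p = 0.00161; 13.1% of genes were called lower). With both disaccharides it had 57.6 and 43.1 CPM (-1.34 ± 0.28, adjusted p = 0.00293; 18.8% were called lower). The NoCarbon2 libraries differed 1.82-fold from each other, yet no sugar library on plates reached the lower of them. Without NoCarbon2 replicate 1, the higher library, the falls were -1.11 for GX and -0.84 for G2X2 and were still called.

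Single disaccharides gave smaller differences in clr-1. With xylobiose it had 53.2 and 80.1 CPM, and the fall against NoCarbon2 was called (-0.93 ± 0.28, edgeR adjusted p = 0.0200; 19.5% of genes were called lower). That call was lost without NoCarbon2 replicate 1 (-0.44, adjusted p = 0.215) or X2 replicate 1 (-0.73, adjusted p = 0.102). With cellobiose it had 69.1 and 78.2 CPM, and the difference of -0.79 ± 0.28 narrowly missed the threshold (adjusted p = 0.0555; 14.2% of genes were called lower). DESeq2 called that difference (-0.80, adjusted p = 0.0293), and so did edgeR without NoCarbon2 replicate 2 (-1.16, adjusted p = 0.00829), while the value was -0.29 without NoCarbon2 replicate 1. Between the disaccharide groups no clr-1 difference was called. X2 against G2 was -0.15 with a 95% interval from -0.75 to 0.46, G2X2 against G2 was -0.55 (-1.16 to 0.062) and G2X2 against X2 was -0.40 (-1.01 to 0.21). Against GX, clr-1 differed by 0.81 in G2 (adjusted p = 0.0890), 0.67 in X2 (adjusted p = 0.0793) and 0.27 in G2X2 (adjusted p = 0.513). The first 2 of these sets of libraries did not overlap with GX. The G2 difference from GX was called by DESeq2 (adjusted p = 0.0499), and that of X2 by edgeR without X2 replicate 1 (0.89, adjusted p = 0.0440).

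Of the 11 comparisons between a pair of groups, clr-2 was called higher in 6 and lower in 1, and clr-1 higher in 1 and lower in 3. XA against Xylan was the comparison in which both were called higher. The mixture against no carbon was the comparison in which they were called in opposite directions, clr-2 higher and clr-1 lower.

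**Figure D2:**
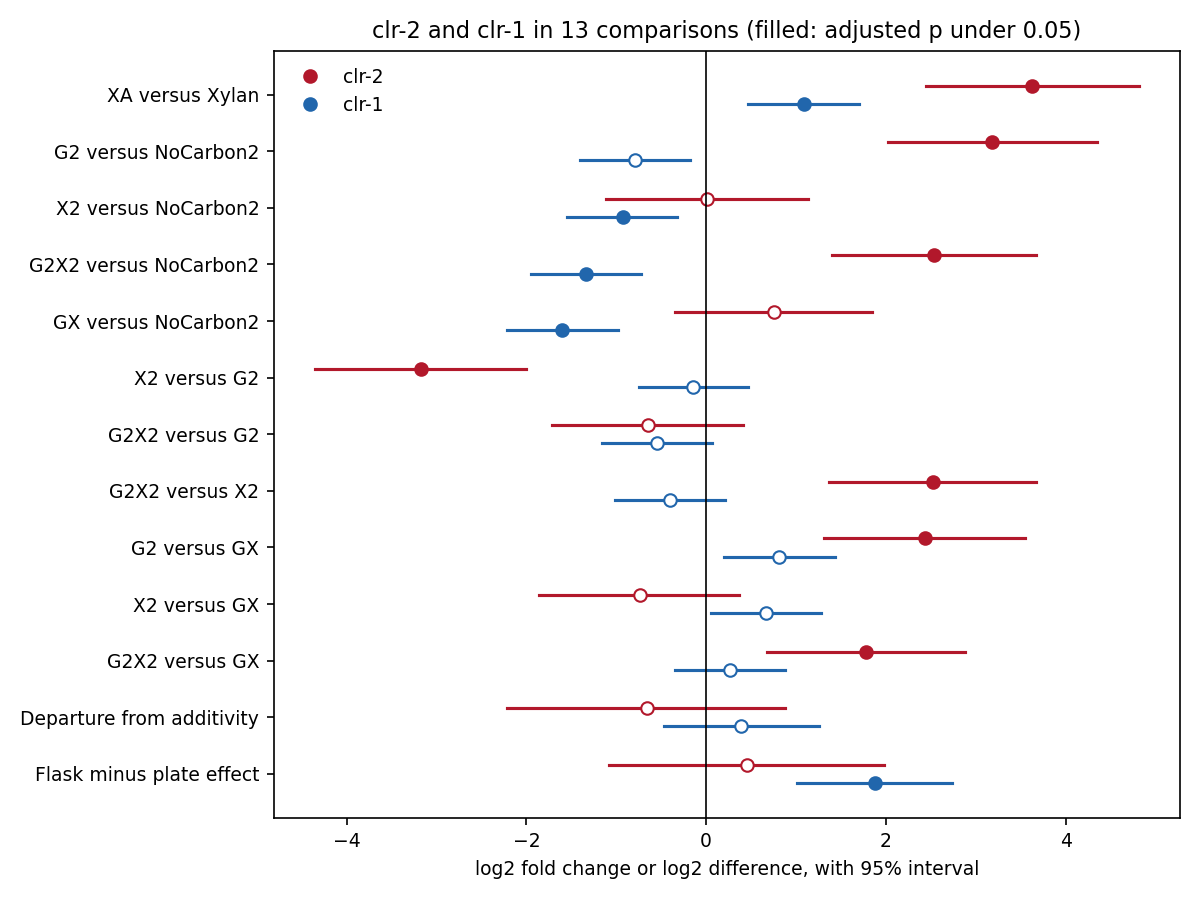
Log2 fold changes of clr-2 (red) and clr-1 (blue) in 11 pairs of groups, with 2 differences between effects at the bottom; lines are 95% intervals and filled points have an adjusted p under 0.05. For clr-2 the intervals of 7 pairs lie away from 0, from -3.17 for X2 versus G2 to 3.63 for XA versus Xylan, and clr-1 lies below 0 in each sugar group against NoCarbon2.

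A further 2 tests asked whether effects differed from each other. The effect of cellobiose on clr-2 with xylobiose present, minus its effect without xylobiose, was -0.66 ± 0.71 (edgeR adjusted p = 0.552), and for clr-1 it was 0.39 ± 0.40 (adjusted p = 0.532). Neither was called, beside 8.58% (higher) and 9.50% (lower) of all genes. The intervals ran from -2.21 to 0.88 for clr-2 and from -0.47 to 1.25 for clr-1, so departures of that size could not be told from 0. The flask effect (XA against Xylan) minus the plate effect (G2 against NoCarbon2) was 0.45 ± 0.70 for clr-2 (adjusted p = 0.665; interval from -1.08 to 1.98). For clr-1 it was 1.88 ± 0.40 (adjusted p = 0.00380), since clr-1 was higher in XA than in Xylan and had a lower mean in G2 than in NoCarbon2. In that test 16.6% of genes were called higher and 17.4% lower.

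Levels of the 2 genes were also compared library by library as the ratio of clr-2 to clr-1, expressed as the log2 difference from the NoCarbon2 mean so that gene length cancels. The ratio was 4.68 and 4.34 in XA, against 2.39 and 1.17 in Xylan. It was 4.15 and 3.66 in G2, 0.062 and 1.27 in X2, 3.75 and 3.89 in G2X2, and 2.40 and 2.19 in GX, against -0.52 and 0.52 in NoCarbon2. The XA, G2 and G2X2 libraries all stood at 3.66 or above, and every other library at 2.40 or below. The ratio in GX came from a higher mean of clr-2 and a lower mean of clr-1 together. As a description, Pearson's r between the 2 genes was 0.20 over the 14 libraries and -0.17 over the 10 plate libraries, which share 7 and 5 conditions.

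**Figure D3:**
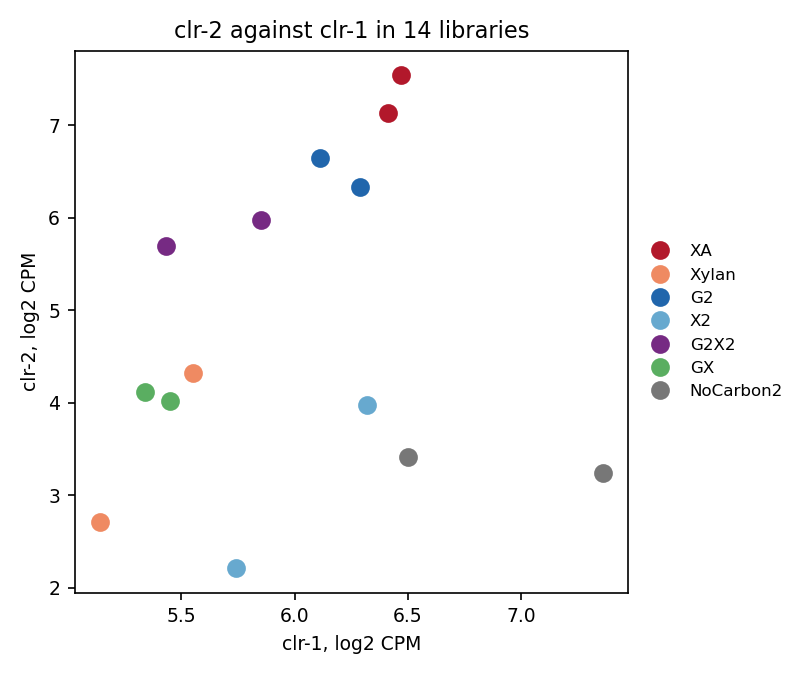
Log2 CPM of clr-2 against log2 CPM of clr-1, each point a library, coloured by group. The NoCarbon2 libraries lie at the right with low clr-2 (3.24 and 3.41), and the XA libraries at the top with intermediate clr-1 (6.47 and 6.41).

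The listed genes of cellulose breakdown were mostly called in the direction of clr-2 where clr-2 was called. Some were also called where clr-2 was not. The list holds 12 loci: the cellobiohydrolases cbh-1 and cbh-2, which cut cellulose from chain ends, 3 endoglucanases (eg-1, eg-2 and eg-45), which cut within chains, the cellobiose dehydrogenase cdh and 6 lytic polysaccharide monooxygenases (LPMOs), which cut by oxidation. Of the 12, 9 were called higher and 0 lower in XA against Xylan (median 2.77, against 0.013 over all genes). They included cbh-1, with 3645 ± 211 CPM in XA and 225 ± 137 CPM in Xylan (SD, n = 2 each; log2 fold change 4.02 ± 0.63), and eg-1 (4.66 ± 0.55), while LPMO9D and LPMO9E were at 0.70 and 0.21. Against NoCarbon2, 11 were higher and 0 lower with G2 (median 2.73, against 0.0089) and with G2X2 (median 3.62, against 0.029). With cellobiose, eg-1 had the largest of these changes (7.27 ± 0.62). Its level was low without carbon, at 1.19 and 1.01 CPM in NoCarbon2, against 235 and 106 CPM in G2. The level of cbh-1 was 1608 ± 836 CPM in G2 and 296 ± 185 CPM in NoCarbon2 (2.44 ± 0.59). With X2, 5 were higher and 0 lower (median 1.13, against -0.023), while clr-2 was not called. The 5 were eg-1 (2.80 ± 0.57), eg-2 (1.76 ± 0.32), LPMO9B (4.12 ± 0.53), LPMO9D (1.96 ± 0.55) and LPMO9H (2.08 ± 0.61). Of these, LPMO9D was near the floor, with 1.14 and 2.50 CPM in X2 and 0.492 and 0.428 CPM in NoCarbon2. With GX, 2 were higher, eg-1 and eg-2, and 3 were lower, cbh-1, eg-45 and LPMO9H (median -0.51, against -0.016). In X2 against G2, 8 were lower, as clr-2 was, and 1, LPMO9B, was higher (2.37 ± 0.49; median of the 12 -2.21, against 0.0073). The mixture against G2 left 11 of the 12 not called, with LPMO9A higher (4.60 ± 0.49). Both G2 and G2X2 against GX had all 12 higher (medians 3.80 and 4.16, against 0.034 and 0.036). In G2X2 against X2, where clr-2 was higher, 9 were higher and 0 lower (median 2.67, against 0.0095). In X2 against GX, where clr-2 was not called, 6 were higher and 0 lower (median 1.23, against 0.0075). Of all genes, 14.6% and 20.1% were called higher in these 2 comparisons, and 15.4% and 18.2% lower. Of all genes, 14.8% were called higher in XA against Xylan, and 4.62% and 14.3% in G2 and G2X2 against GX. Against NoCarbon2, 12.3% (G2), 19.4% (G2X2), 19.1% (X2) and 10.9% (GX) were higher, with 13.1% lower in GX. In X2 against G2, 18.3% were lower and 19.2% higher, and in G2X2 against G2 8.23% were higher and 7.04% lower.

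The 4 xylanase loci, whose enzymes cut the xylan backbone, were called in the direction of clr-2 in some comparisons and not in others. Where clr-2 was called higher, all 4 were higher in G2X2 against NoCarbon2 (median 4.64) and against GX (median 5.48), and 2 were higher and 0 lower in XA against Xylan (median 0.72). Of all genes, 19.4%, 14.3% and 14.8% were called higher in these comparisons, and 17.1% lower in the last. In G2X2 against X2, where clr-2 was also higher, 0 were higher and 2 lower (median -1.27), and in G2 against GX 0 were called. Of all genes, 14.6% were called higher and 15.4% lower in the former, and 4.62% and 5.87% in the latter. All 4 xylanase loci were called higher in X2 against NoCarbon2 (median 6.77), where clr-2 was not called, and in X2 against G2 (median 7.43), where clr-2 was lower. Of all genes, 19.1% and 19.2% were called higher there. The xylanase log2 fold changes in X2 against NoCarbon2 ran from 3.25 ± 0.36 (MYCTH_56237) to 8.19 ± 0.57 (MYCTH_89603). With G2 against NoCarbon2, where clr-2 was higher, 0 xylanase loci were higher and 1 was lower. Of all genes, 12.3% were called higher and 14.2% lower there. Medians over all genes lay from -0.023 to 0.036 in the comparisons named for the xylanase loci.

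Other regulators differed from each other. The xylanase regulator gene xyr-1 had 129.7 ± 21.0 CPM in XA and 32.6 ± 15.5 CPM in Xylan (SD, n = 2 each), and 159 ± 21.6 CPM in G2 and 49.2 ± 12.4 CPM in NoCarbon2. It was called higher with clr-2 in XA against Xylan (1.99 ± 0.29), G2 against NoCarbon2 (1.69 ± 0.28) and G2X2 against NoCarbon2 (0.87 ± 0.28), and lower with it in X2 against G2 (-2.25 ± 0.29). The same held for G2X2 against X2 (1.42 ± 0.28), G2 against GX (2.40 ± 0.29) and G2X2 against GX (1.58 ± 0.29), where both were called higher. The gene cre-1, which encodes the main repressor in the presence of preferred sugars, was not called in XA against Xylan (-0.58 ± 0.24) or in any sugar against NoCarbon2. It was lower in G2X2 than in X2 (-1.03 ± 0.24), where clr-2 was higher, and higher in X2 than in GX (0.95 ± 0.24), where clr-2 was not called.

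Genes that act on cellobiose itself were mixed. The intracellular beta-glucosidase gene gh1-1, whose enzyme splits cellobiose into glucose, was called higher with clr-2 in G2 (2.75 ± 0.32) and G2X2 (2.76 ± 0.32) against NoCarbon2, and had 63.1 ± 24.2 CPM in X2 and 61.6 ± 18.1 CPM in NoCarbon2. The transporter gene cdt-2 was called higher with clr-2 in XA against Xylan (2.79 ± 0.41), in G2 (1.30 ± 0.40) and G2X2 (3.83 ± 0.43) against NoCarbon2, and in G2 (2.76 ± 0.42) and G2X2 (5.29 ± 0.47) against GX. It was also higher in X2 against NoCarbon2 (4.51 ± 0.45), where clr-2 was not called, and in X2 against G2 (3.21 ± 0.42), where clr-2 was lower. The transporter gene cdt-1 had a mean of at most 7.73 CPM in any group, and the locus listed as an extracellular beta-glucosidase, bgl (MYCTH_66804), was lower in G2X2 against NoCarbon2 (-1.43 ± 0.44). The assignments of cdt-1 and bgl are the least sure.

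**Figure D4:**
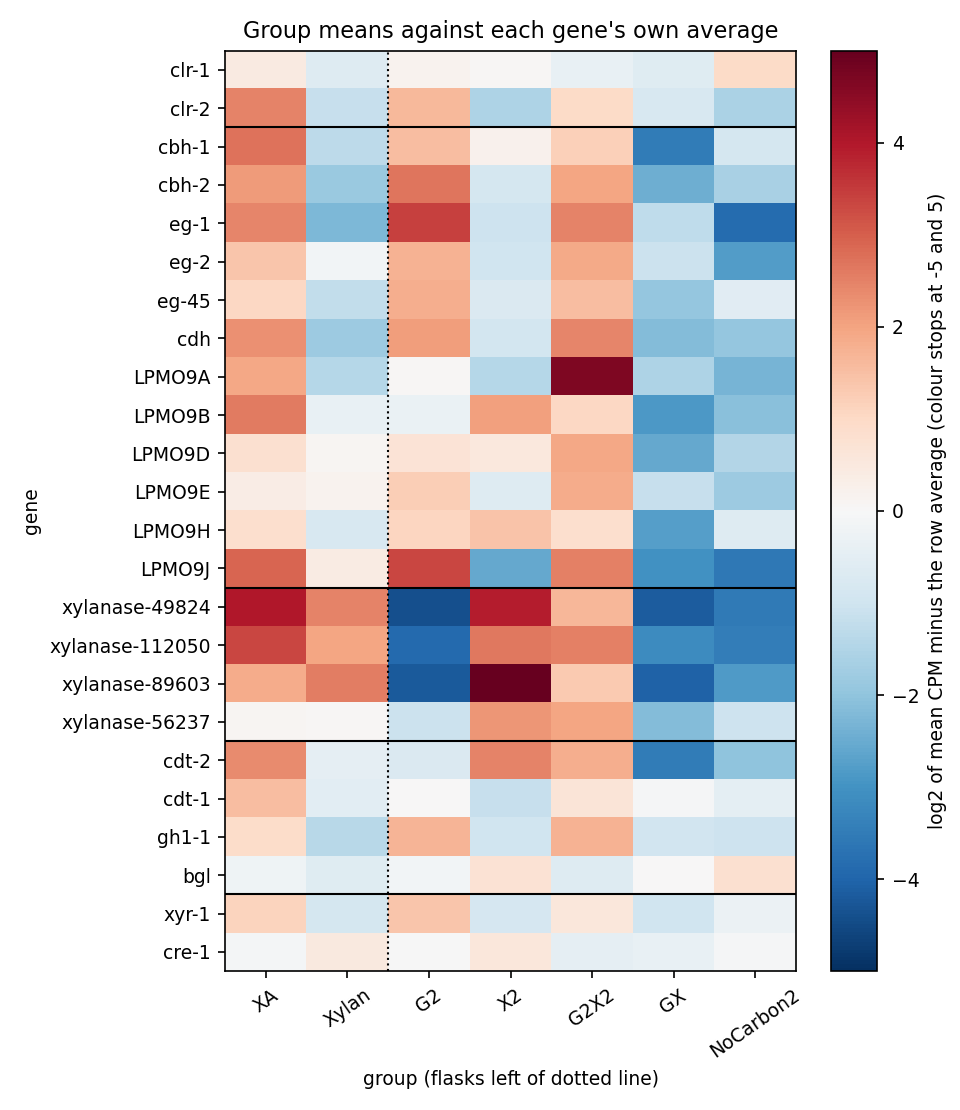
Group means of clr-1, clr-2 and 22 listed loci as log2 CPM minus each gene's own average over 7 groups, red above and blue below it, with horizontal lines between lists. The rows of clr-2, gh1-1 and xyr-1 are red in XA, G2 and G2X2 and pale or blue elsewhere. The 4 xylanase rows are red in X2 and G2X2, red or pale in XA and Xylan, and blue in G2. The row of clr-1 is reddest in NoCarbon2.

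The genes most like each regulator were found by Pearson's r of log2 CPM over the 14 libraries, among 6694 other genes with a mean of at least 10 CPM. For clr-2 the 5 nearest were MYCTH_2301968 (r = 0.921), cdh (MYCTH_111388; r = 0.906), MYCTH_33936 (r = 0.900), eg-1 (MYCTH_111372; r = 0.893) and MYCTH_68753 (r = 0.893). Next came cbh-2, xyr-1 and gh1-1, at ranks 6 to 8. Of the 10 cellulase and LPMO loci in the ranking, 7 were among the first 100 for clr-2 and 0 for clr-1, and 0 of the 4 xylanase loci were for either. These r values rest on 7 conditions sampled in pairs and are descriptions.

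Likeness in pattern did not mean likeness in size. The nearest gene to clr-2, MYCTH_2301968, had 171 ± 1.00 CPM in XA and 101 ± 0.00856 CPM in Xylan, a log2 fold change of 0.76 ± 0.16 (adjusted p = 0.00353). The third, MYCTH_33936, had 185 ± 92.7 CPM in G2 and 1.96 ± 1.17 CPM in NoCarbon2 (6.57 ± 0.72, adjusted p = 5.51e-05). It was also called higher in X2 against NoCarbon2 (3.02 ± 0.65, adjusted p = 0.00344), where clr-2 was not.

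For clr-1 the nearest genes were MYCTH_2121737 (r = 0.891), MYCTH_2307847 (r = 0.867), MYCTH_2293947 (r = 0.862), MYCTH_2308309 (r = 0.860) and MYCTH_82189 (r = 0.858). The first, MYCTH_2121737, had 44.2 ± 6.77 CPM in XA and 15.5 ± 9.83 CPM in Xylan, and 19.2 ± 0.805 CPM in GX and 62.9 ± 7.71 CPM in NoCarbon2. Like clr-1 it was called higher in XA against Xylan (1.52 ± 0.36, adjusted p = 0.00774) and lower in GX against NoCarbon2 (-1.71 ± 0.36, adjusted p = 0.00454). It was picked by its likeness over these same libraries, so such matches follow in part from the choice. In G2X2 against X2, MYCTH_2121737 was narrowly called lower (-1.01 ± 0.36, edgeR adjusted p = 0.0486), where clr-1 was -0.40 ± 0.28 and not called. In X2 against NoCarbon2 it was not called (-0.91 ± 0.35, adjusted p = 0.0585), though close in size to the called fall of clr-1 (-0.93 ± 0.28). Whether the 2 genes differ was not tested. None of the files pairs these 5 identifiers with a name. Over the 10 plate libraries, 1 of the 5 stayed among the 5 nearest to clr-1 (MYCTH_82189, r = 0.942), and 0 of the 5 did for clr-2, although none of the 10 fell below rank 90. In that ranking gh1-1 was 4th for clr-2 (r = 0.950) and eg-1 9th (r = 0.924).

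Libraries of the same group did not always carry the same clr-2 level, and the differences within each pair are given here beside those of the cellulase loci. Over all genes, 46.4% (G2X2) to 51.9% (Xylan) were higher in replicate 2, with medians from -0.036 to 0.015. In X2, clr-2 was 1.77 higher in replicate 2 than in replicate 1 on the log2 scale, and 11 of the 12 cellulase and LPMO loci were also higher there (median 1.39, against -0.020 over all genes). In Xylan, clr-2 was lower in replicate 2 by 1.61, and 7 of the 12 loci were lower in it (median -0.31). In XA, clr-2 differed by -0.41, and all 12 loci were lower in replicate 2 (median -0.28). In G2, clr-2 differed by -0.32, while all 12 loci were lower in replicate 2 (median -0.97). In NoCarbon2, clr-1 was lower in replicate 2 by 0.86, clr-2 differed by 0.17, and 11 of the 12 loci were lower in replicate 2 (median -0.52). In G2X2 the signs differed: clr-2 differed by -0.27, while 11 of the 12 loci were higher in replicate 2 (median 0.43). In GX, clr-2 differed by -0.10, and 8 of the 12 loci were higher in replicate 2 (median 0.15). The counts in Xylan and GX were the nearest to an even split of the 12 loci. The results above without single libraries show how each value moved with the spread between replicates.

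In the RefSeq annotation of assembly ASM22609v1 the 2 genes lie on the same chromosome with 39 genes between them. This was looked at after the values were seen. Of the 37 intervening genes tested, 4 were called higher and 10 lower in XA against Xylan, or 10.8% and 27.0%, against 14.8% and 17.1% of all genes. In G2 against NoCarbon2, 7 were higher and 2 lower, or 18.9% and 5.41%, against 12.3% and 14.2%. Of the 3 genes on either side of clr-2, 4 were tested, and 0 were called higher in XA against Xylan or G2 against NoCarbon2 by edgeR. Of all genes, 14.8% and 12.3% were called higher there, so 4 genes are too few to differ from that share. The adjacent gene MYCTH_2298752 was lower with every plate sugar against NoCarbon2, whether or not clr-2 was called there. Its log2 fold changes were -2.27 ± 0.38 in G2 (edgeR adjusted p = 0.000935) and -1.73 ± 0.37 in G2X2 (adjusted p = 0.00317), where clr-2 was higher. They were -1.17 ± 0.37 in X2 (adjusted p = 0.0240) and -1.24 ± 0.36 in GX (adjusted p = 0.0264), where clr-2 was not called. Next to clr-1, MYCTH_2298860 was higher in XA against Xylan (0.91 ± 0.24, adjusted p = 0.0137), as clr-1 was, and was not called in G2 (0.37), X2 (0.16), G2X2 (-0.13) or GX (-0.54) against NoCarbon2. On the other side of clr-1, MYCTH_2298867 was lower in X2 (-1.31 ± 0.22, adjusted p = 0.000675) and G2X2 (-0.77 ± 0.21, adjusted p = 0.0133) against NoCarbon2, as clr-1 was, and was not called in GX (-0.35) or in XA against Xylan (0.59, adjusted p = 0.0510). Of the 6 genes flanking clr-1, 3 were lower in X2 against NoCarbon2, 1 in G2X2 and 1 in GX, and 0 were higher. Over all genes, 19.5%, 18.8% and 13.1% were called lower in these comparisons, and 19.1%, 19.4% and 10.9% higher. No flanking gene overlaps either regulator in that annotation.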

How the data were processed

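The deposited values were raw read counts for each gene. Per the submitters' processing notes, TopHat2 2.0.8b and HTSeq 0.13.5 were used. The sources used here do not give the genome build, the annotation or the strand setting, so no coordinates are printed. Without a stated strand setting reads of overlapping or antisense genes cannot be told apart. Groups and replicate numbers came from sample titles, and 9087 identifiers matched RefSeq locus tags. The members and lists were chosen with earlier results of these data known, and locus names are as remembered from publications.

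After filterByExpr (minimum count 10), 8567 genes entered 1 robust quasi-likelihood model in edgeR 4.0.16 (R 4.3.3) with TMM scaling. It had 14 libraries and a mean for each of 7 groups, leaving 7 residual degrees of freedom. The 13 contrasts were each adjusted over all genes. Tests are two-sided. Intervals (95%) come from the t distribution of that model. The model was checked on simulated counts. Alternatives were upper-quartile scaling, DESeq2 1.42.0 size factors, the DESeq2 Wald test and no count filter. Others were libraries of the same vessel only (flasks or plates), a replicate block and leaving out each library. The rule for named genes covered both members, the listed loci and the 5 genes nearest each member by r of log2 CPM (prior count 2). Its further part, genes whose protein holds the zinc cluster pattern, was not analysed here. The neighbouring genes were added after the values were seen.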

Additional observations from a re-analysis of the deposited data

Results flagged for a closer look

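The effect of the cellulosic source on clr-1 differed between the vessels. In flasks clr-1 was higher in XA than in Xylan (1.09 on the log2 scale), and on plates its mean was lower in G2 than in NoCarbon2 (-0.79), a difference of 1.88 ± 0.40 (edgeR adjusted p = 0.00380) where 16.6% of genes were called higher and 17.4% lower. It was flagged because the test of the difference itself was called. The baselines differ as well, since the flask comparison starts from xylan and the plate comparison from no carbon, so vessel, polymer and baseline cannot be told apart. The value was 1.38 to 2.24 on leaving out single libraries, lowest without NoCarbon2 replicate 1, and was called each time (adjusted p 0.000912 to 0.0215). Groups of 2 libraries were too small for a test of outlying samples.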

How the results depend on the processing

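For 26 member results (2 genes in 13 comparisons), 149 of the 154 values under settings other than leaving out a library kept direction and side of the threshold. Exceptions were clr-2 in X2 versus NoCarbon2 and clr-1 with the DESeq2 Wald test. For clr-2 the value was 0.011 in the report. It was -0.041 with upper-quartile scaling, -0.0028 with DESeq2 size factors and -0.050 with libraries of the same vessel only. The DESeq2 Wald test called clr-1 in G2 versus NoCarbon2 (-0.80) and G2 versus GX (0.81). The cause was not tested.

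Leaving out each library kept 100 of 120 values. For clr-1 the values ran from 0.88 to 1.33 in XA versus Xylan, -1.16 to -0.29 in G2 versus NoCarbon2, -1.30 to -0.44 in X2 versus NoCarbon2, -0.49 to 0.079 in X2 versus G2, -0.77 to -0.35 in G2X2 versus G2, -0.66 to -0.066 in G2X2 versus X2, 0.32 to 0.89 in X2 versus GX, 0.040 to 0.46 in G2X2 versus GX and -0.11 to 0.75 for the departure from additivity. For clr-2 they ran from -1.15 to 0.59 in X2 versus NoCarbon2, 2.27 to 2.58 in G2 versus GX, -1.91 to -0.14 in X2 versus GX, 1.64 to 1.91 in G2X2 versus GX, -1.27 to 0.49 for the departure from additivity and -0.14 to 1.52 for the flask minus plate effect. A group left with 1 library is assumed to vary like the others.

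Same-numbered libraries did not pair: their replicate differences correlated at -0.16 to 0.21 between groups, above 0.1 in 2 of 21 pairs of groups. With the replicate block clr-2 was 3.65 and clr-1 1.10 in XA versus Xylan, and no member call changed. The flask minus plate effect has no value with libraries of the same vessel only, since it spans flasks and plates.

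Counts of called genes fell by over 1.5 times without single libraries, to lows of 1203 (from 2731) in XA versus Xylan, 1150 (2274), 995 (2060) in G2 and GX versus NoCarbon2, 1525 (3213) in X2 versus G2, 409 (1308) and 1369 (2573) in G2X2 versus G2 and X2, 219 (899), 1852 (3277) and 1081 (2271) in G2, X2 and G2X2 versus GX, 778 (1549) for the departure from additivity and 1849 (2908) for the flask minus plate effect. Upper-quartile scaling moved the median of all genes to 0.109 in XA versus Xylan, -0.107 in X2 versus GX and -0.101 in G2X2 versus GX. Of the 5 genes nearest each member, 1 (clr-1) and 0 (clr-2) stayed among the 5 nearest with the 10 plate libraries. With 2 libraries a group, each library held 83 or more reads of both members, and a p over the threshold does not show that groups were alike.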
